A study of Mus musculus with 22 samples.

Results

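The 10 genes Gata1, Gata2, Tal1, Zfpm1, Klf1, Runx1, Myc, Kit, Hba-a1 and Hbb-b1 govern or mark the red cell lineage, and their chromatin loops and domain boundaries were followed from mitosis into G1 with and without the architectural protein CTCF. A loop was assigned to a gene when the bin at either of its ends (its anchors) overlapped the gene body extended by 20 kb on each side, and a boundary when its 10 kb bin overlapped the same stretch. By position alone this gave 84 of the 16370 deposited loops and 5 of the 6376 deposited boundaries. Each of the 10 genes had at least 1 loop, and 5 had a boundary.

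In situ Hi-C, which counts ligated pairs of DNA fragments as contacts, was made from G1E-ER4 cells, a mouse proerythroblast line derived from cells that lack GATA1 and kept uninduced here. All groups carried CTCF fused to AID-mCherry on both alleles and the plant protein OsTiR, delivered by a retroviral vector, so that auxin removes CTCF. Cells were arrested in prometaphase with nocodazole at 200 ng/ml, to which auxin was added before the end of the arrest for the +auxin groups. They were taken at once or, by the sample titles, after release for 30 min (ana/telophase), 60 min (early-G1) or 120 min (mid-G1) and sorted by DNA content and fluorescence. There were 2 libraries per treatment at prometaphase, ana/telophase and early-G1 and 3 at mid-G1, 18 in all. Ana/telophase cells carried OsTiR with GFP fused to a mitotic degron, in place of the OsTiR with plain GFP of the other stages. At ana/telophase, stage and construct therefore cannot be told apart. The Gata1 gene itself is disrupted in these cells, so values there are of a disrupted locus. The 4 libraries of cells treated with triptolide were not used here.

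Each value below is of a map in which the replicates of a condition had been merged, so a loop or boundary has 1 value per condition, no error is given and no test between treatments was run. Maps of single replicates were not analysed here. Loop strength is the ratio of observed contacts to those expected from the surroundings, averaged over the 9 pixels at the summit of a loop. Each map averages over a sorted population, so a contact in fewer cells and a weaker contact in every cell cannot be told apart. Loops in the list span 70 to 2000 kb, so contacts over shorter distances are not covered.

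GATA1 and GATA2 bind the same DNA motif and follow each other in red cell development, with TAL1 as a partner in shared complexes and FOG1, the product of Zfpm1, as their cofactor. KLF1 activates the adult globin genes, RUNX1 acts early in blood stem and progenitor cells, MYC drives growth, and KIT is the receptor for stem cell factor. Cohesin extrudes chromatin until it meets CTCF bound to motifs that face each other, which gives structural loops. Enhancers and promoters (cis-regulatory elements, CRE) also contact each other, and the deposited list sorts loops into structural, CRE, dual-function (both kinds of element at the anchors) and uncategorised.

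The anchor bins were searched on both strands of the mm9 genome for a shortened core of the CTCF motif, 12 bases that read CCA, NN, AGG, N and GGC without a gap. No other motif was searched. A match stood in at least 1 anchor of 27 of the 74 member loops with 10 kb anchors (36.5%), against 38.7% of all such loops, and of 5 of the 10 with 25 kb anchors, against 55.7% of all such loops. Matches that faced each other were found in 1 member loop (1.19%), against 3.51% of all loops. The following matches, only a part of those found, lie in anchors of loops described below. Each line gives 30 bases from 5′ to 3′ on the strand of the match, with the match in capitals.
Gata1, chrX:7545106-7545135, minus strand, Gata1 intron: aaaggtcctCCACAAGGAGGCggcacaccc
Gata2, chr6:88843742-88843771, minus strand, Mcm2 intron: catataccaCCAGCAGGTGGCgctgtggat
Tal1, chr4:115521708-115521737, minus strand, Mknk1 intron: atggcagtgCCAGCAGGAGGCttcaggtga
Zfpm1, chr8:124797217-124797246, plus strand, Gm20388 intron: ccagcctgaCCACCAGGTGGCagcatctac
Zfpm1, chr8:124821605-124821634, plus strand, Zfpm1 and Gm20388 introns: acaggtacaCCAGGAGGGGGCaggggtcac
Zfpm1, chr8:125238034-125238063, plus strand, Gm20388 intron: cctcacaccCCAACAGGTGGCcatggttct
Klf1, chr8:87513880-87513909, minus strand, intergenic: atctgaagcCCACCAGGGGGCgcgcagaac
Runx1, chr16:92827256-92827285, minus strand, intergenic: gggggctggCCAGGAGGAGGCaggatcttg
Runx1, chr16:93454679-93454708, minus strand, intergenic: tctttgtggCCACTAGGTGGCgctcatgcg
Myc, chr15:63505104-63505133, plus strand, intergenic: cactgctggCCAAGAGGAGGCattattggt
Kit, chr5:75853644-75853673, minus strand, intergenic: agacagaagCCATCAGGAGGCagaaccgtg
Hba-a1, chr11:32117023-32117052, plus strand, Rhbdf1 exon: aataaatgaCCACGAGGTGGCgccaactgc
The match at Gata1 lies 0.08 kb from an annotated Gata1 start and is shared by both Gata1 loops. That beside Runx1 lies 0.96 kb from the distal Runx1 start and is shared by 4 loops. The Rhbdf1 bin of the Hba-a1 loop also held a match on the minus strand, at chr11:32110834-32110863, 0.29 kb from the Rhbdf1 start. It thus held matches on both strands. The Hba-x bin held a match on the plus strand, at chr11:32179969-32179998. Gm20388 is a long gene model that spans Zfpm1 and many of its neighbours. The bins of the Hbb-b1 loop held no match, while windows of 30 kb around its anchor midpoints held 1 on each side, facing each other. In such windows 63.1% of member loops had a match (against 65.4% of all loops), and matches faced each other in 2 (2.38%, against 9.25%).

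Zfpm1 had 20 loops, Runx1 18, Myc 12, Gata2 9, Kit 8, Tal1 7, Hba-a1 4, Klf1 3, Gata1 2 and Hbb-b1 1. By the same rule 65.1% of all protein-coding genes had a loop, with a median of 2, and 99.9% of genes had fewer loops than Zfpm1 or than Runx1. These 2 stretches are also long, 95.1 kb at Zfpm1 and 264.6 kb at Runx1. The 84 loops rested on 42 distinct bins at the genes and 74 distinct partner bins, and 31 of them shared pixels with another loop of the set, so they are not independent. In 36 loops the bin at the gene held an annotated start of that gene, and 26 of the partner bins held the start of a protein-coding gene. Their median span was 370 kb, against 220 kb for all loops, 28 spanned 500 kb or more (33.3%, against 20.1% of all loops) and 12 spanned 1 Mb or more (14.3%, against 6.33% of all loops).

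CRE loops made up 42 of the 84 (50%, against 28.4% of all loops), dual-function loops 30 (35.7%, against 20.6%), structural loops 8 (9.52%, against 29.5%) and uncategorised loops 4 (4.76%, against 21.5%). Of the 8 structural loops 5 were at Runx1, 2 at Myc and 1 at Zfpm1. The deposited list also gives the stage at which a loop was first called in each treatment. At the member genes 35 loops were called only in -auxin cells (41.7%, against 71.1% of all loops), 30 in both treatments (35.7%, against 14.4%) and 19 only in +auxin cells (22.6%, against 14.6%). CRE loops were called only without auxin in 13 of 42 cases (31%, against 44.5% of all CRE loops), in both treatments in 20 (47.6%, against 25.2%) and only with auxin in 9 (21.4%, against 30.4%). For dual-function loops the counts were 14 of 30 (46.7%, against 67.1%), 9 (30%, against 19.4%) and 7 (23.3%, against 13.5%). Structural loops were called only without auxin in 5 of 8 cases (62.5%, against 94.6% of all structural loops), in both in 1 (12.5%, against 3.87%) and only with auxin in 2 (25%, against 1.49%). Of the 4 uncategorised loops 3 were called only without auxin (75%, against 77.6%), 0 in both (against 9.68%) and 1 only with auxin (25%, against 12.8%). The share called in both treatments was thus above that of all loops in each category but the uncategorised.

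**Figure D1:**
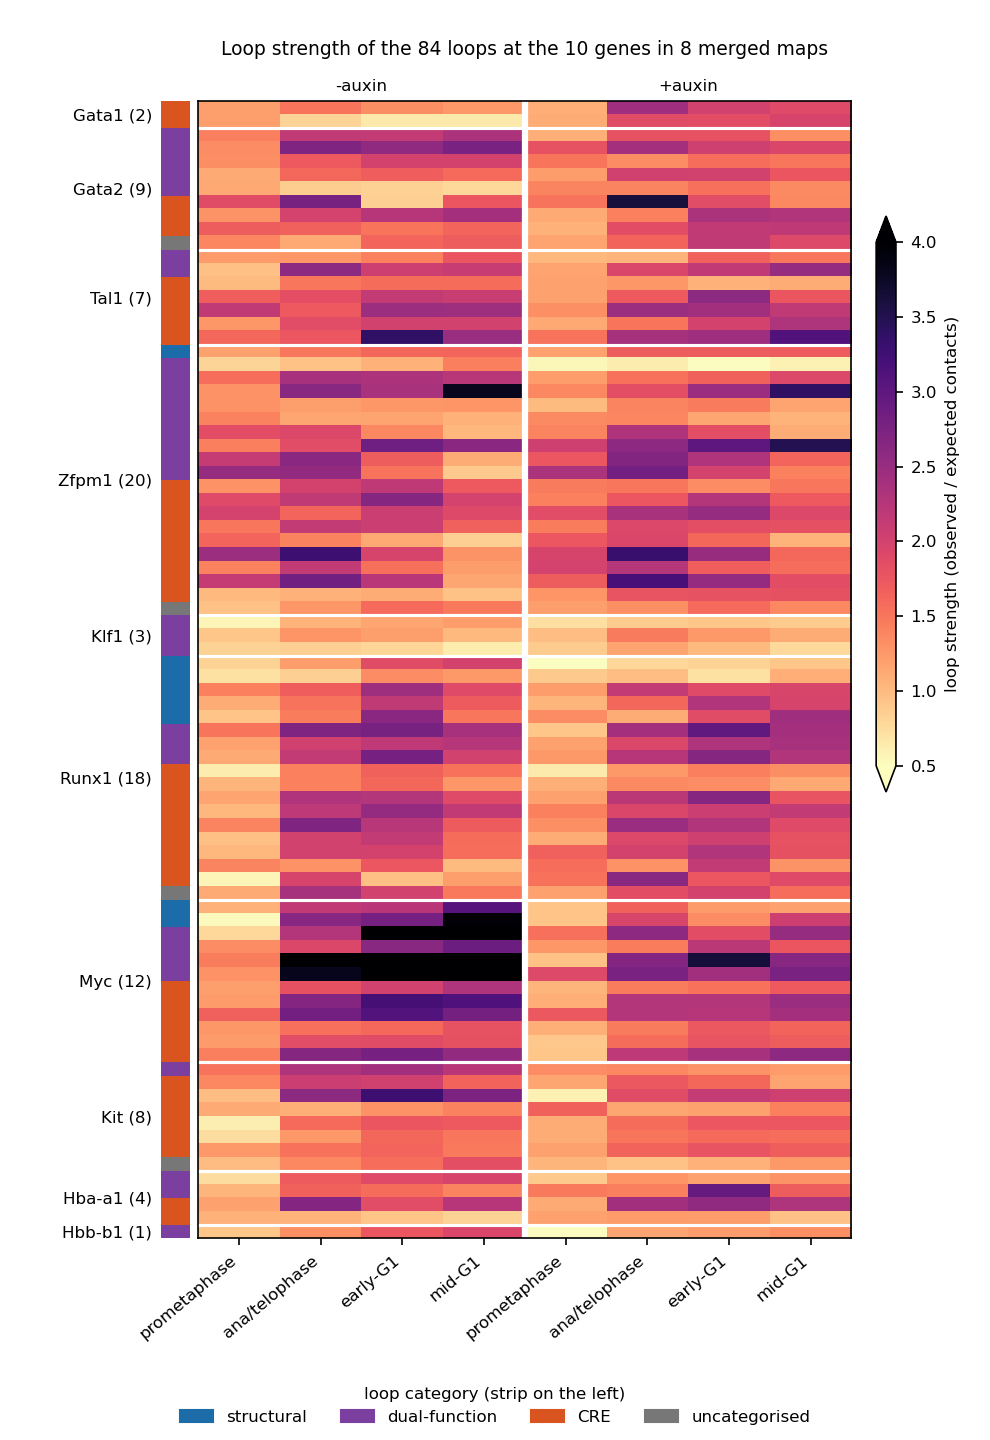
Loop strength (observed over expected contacts, colour) of the 84 loops (rows, grouped by gene with the number of loops in brackets and by category in the strip on the left) in the 8 merged maps (columns). The far loops of Myc reached 5.46 without auxin, the loops of Klf1 did not exceed 1.46, and several Zfpm1 loops were strongest in prometaphase or ana/telophase in both treatments.

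Over the 4 stages, from prometaphase to mid-G1, the median -auxin strength of the member loops ran 1.23, 1.85, 1.98 and 1.72. Over all loops the medians were 1.08, 1.55, 1.81 and 1.9, so the member loops were above the median loop at the first 3 stages and below it in mid-G1. In 22 of the 84 the strength without auxin was highest in mid-G1 (26.2%, against 57.8% of all loops), and in 7 it was highest in prometaphase (8.33%, against 2.63%). Those 7 were 3 loops of Zfpm1, 2 of Gata2, 1 of Gata1 and 1 of Hba-a1.

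With auxin the median in mid-G1 was 1.74 at the member genes and 1.42 over all loops. The median of log2(+auxin / -auxin) in mid-G1 was 0.01 over the member loops, with a middle range (between the lower and upper quartiles) of -0.35 to 0.21. All loops had a median of -0.38 and a middle range of -0.81 to -0.03. A loop is called weaker or stronger here when the 2 maps differed by at least 1.5-fold. In mid-G1 11 member loops were weaker (13.1%, against 36.7% of all loops) and 8 were stronger (9.52%, against 2.83%). Measured from the median change of all loops instead of from 0, 3 were weaker and 21 stronger, so the split between both directions depends on that centring. Myc held 6 of the 11 weaker loops, and Gata2, Zfpm1, Runx1, Kit and Hba-a1 held 1 each. The 8 stronger loops were 3 of Zfpm1, 2 of Gata1, 2 of Runx1 and 1 of Gata2. Without the loops of Myc 5 weaker loops were left, and without those of Zfpm1 5 stronger ones.

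The counts differed between categories. Among CRE loops the median mid-G1 change was 0.03 at the member genes and -0.02 over all, with 0 of 42 weaker (against 7.17%) and 5 stronger (11.9%, against 6.57%). None of the 4 uncategorised loops was weaker (against 25.7%) or stronger (against 1.56%). Among dual-function loops the medians were -0.15 and -0.44, with 8 of 30 weaker (26.7%, against 39.4%) and 2 stronger (6.67%, against 2.88%). Of the 8 structural loops 3 were weaker (37.5%, against 71.3%) and 1 was stronger (12.5%, against 0.124%). The change was small in mitosis for the median loop: 8 member loops were weaker in prometaphase (9.52%, against 9.52% of all loops) and 5 stronger (5.95%, against 6.46%). In ana/telophase 5 were weaker (5.95%, against 20.4%) and 4 stronger (4.76%, against 0.886%), and in early-G1 11 were weaker (13.1%, against 31.4%) and 7 stronger (8.33%, against 2.55%). A call did not always match the strength. Of the 35 loops called only in -auxin cells, 10 had a higher mid-G1 strength with auxin (28.6%, against 7.75% of all such loops), and of the 19 called only in +auxin cells 3 had a lower one (15.8%, against 20.7%).

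**Figure D2:**
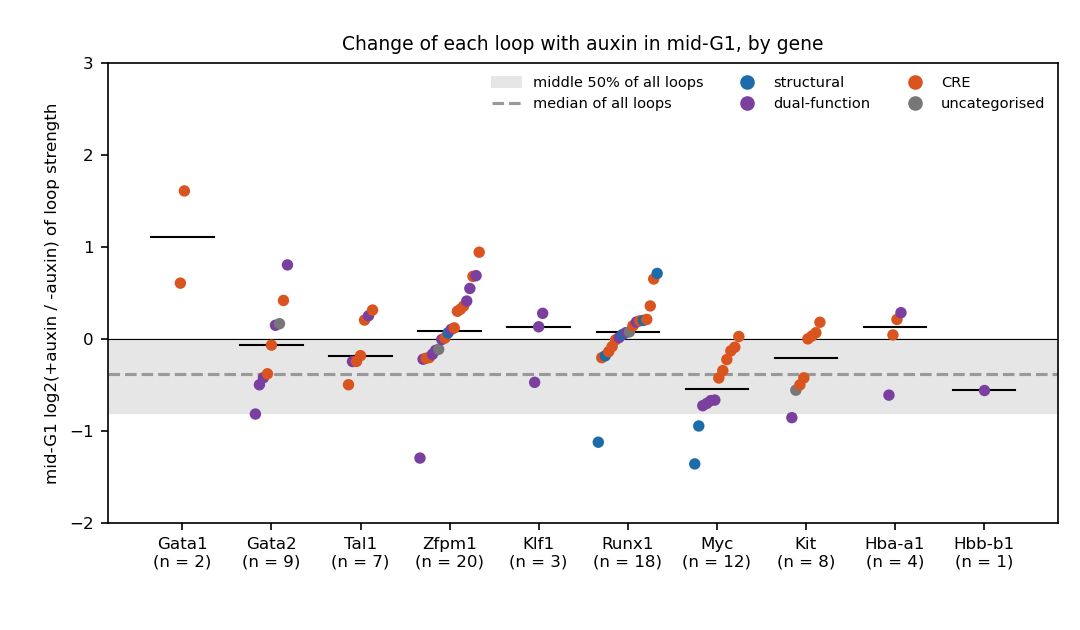
Change of loop strength with auxin in mid-G1, log2(+auxin / -auxin), for each of the 84 loops (points, coloured by category) by gene, with the gene's median (black bar). The grey band is the middle range and the dashed line the median, -0.38, of all loops. Both Gata1 loops lie above 0 and 11 of the 12 Myc loops lie below it.

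In the gene by gene account, each set of 4 strengths runs from prometaphase through ana/telophase and early-G1 to mid-G1, and the last number given is the mid-G1 log2 change.

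Gata1 (chrX:7536386-7555197, minus strand) had 2 CRE loops, both called only in +auxin cells, and no boundary. They share the bin chrX:7540001-7550000, which holds an annotated Gata1 start. The shorter one, of 100 kb, ended in chrX:7640001-7650000 in an exon of Suv39h1, which encodes a histone H3K9 methyltransferase. Its strength was 1.21, 0.807, 0.644 and 0.644 without auxin and 1.11, 1.87, 1.85 and 1.96 with auxin (1.61). Without auxin the 3 later values were below 1, that is below the local expectation, and its mid-G1 strength exceeded only 0.397% of all loops. The change exceeded that of 99.98% of all loops. Such a rank follows in part from the call, which was made on the same maps. All loops called only in +auxin cells had a median mid-G1 change of 0.24, against -0.38 over the whole list. The longer one, of 130 kb, ended in chrX:7670001-7680000, a bin with no protein-coding gene. Here the strength was 1.21, 1.5, 1.32 and 1.24 without auxin and 1.1, 2.43, 2.02 and 1.89 with auxin (0.61). Both loops were alike between treatments in prometaphase and parted in ana/telophase.

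Exactly 1 structural loop of the list had 1 anchor inside and 1 outside both Gata1 loops, between chrX:7490001-7500000 and chrX:7590001-7600000. It was called only in -auxin cells. Its strength climbed through 1.20, 2.14, 2.66 and 2.89 without auxin and stood at 1.4, 1.06, 1.01 and 0.900 with auxin (-1.68). From ana/telophase on the structural loop was stronger than both Gata1 loops without auxin and weaker than both with auxin. The calls were made on the same maps that gave these strengths, so this opposite order follows in part from the calls. Whether the structural loop and the Gata1 loops depend on each other was not tested.

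**Figure D3:**
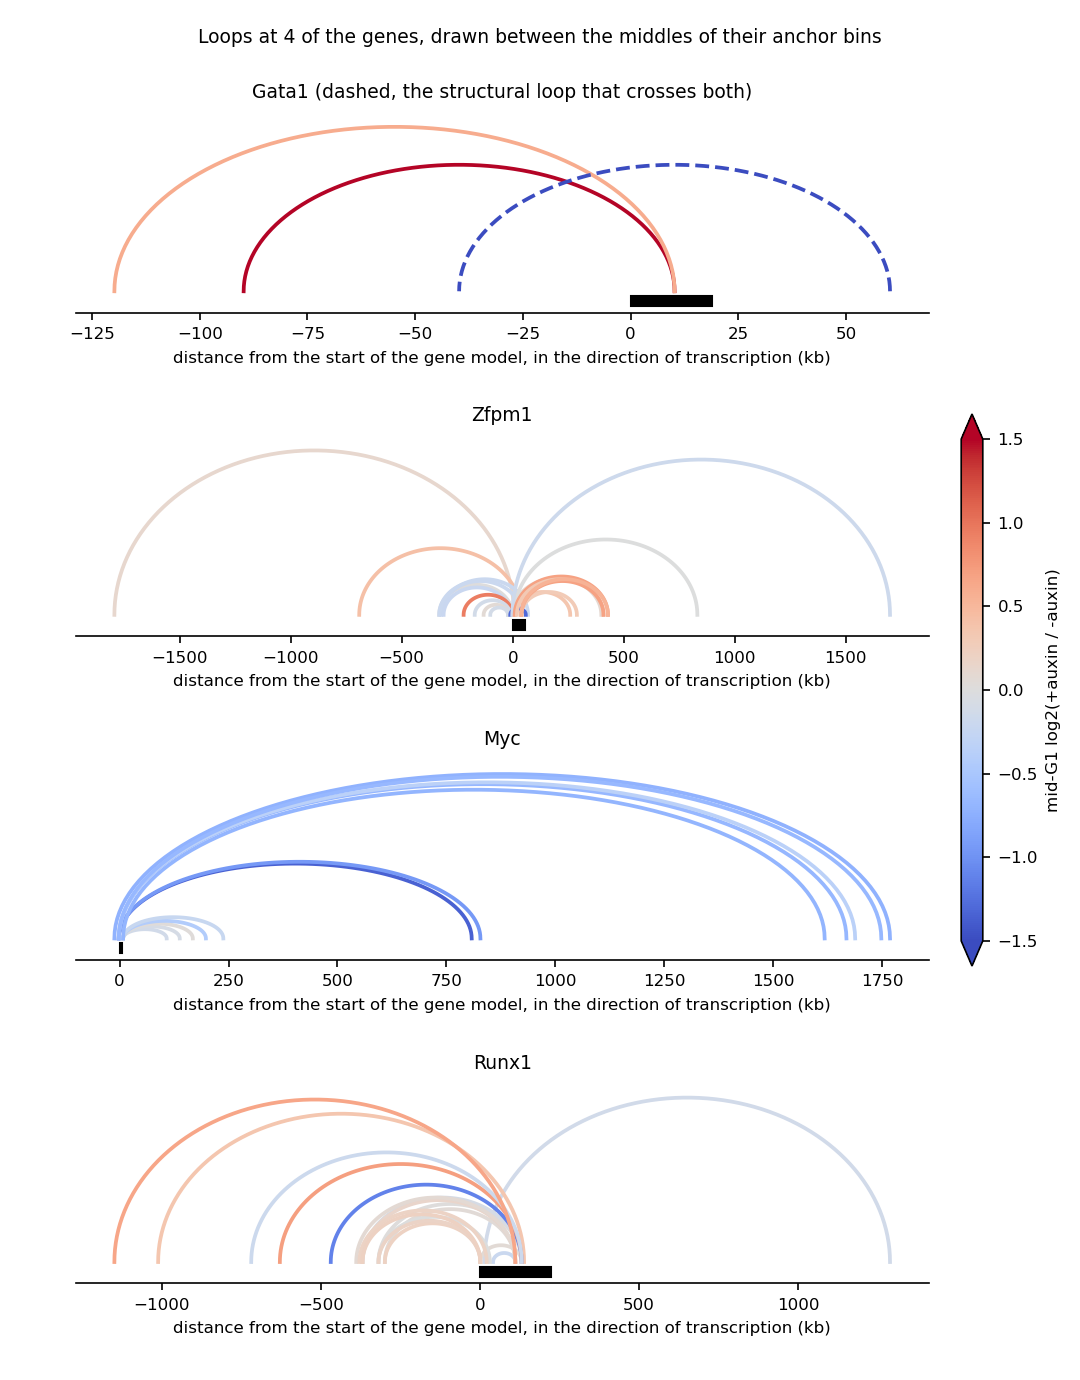
Loops at Gata1, Zfpm1, Myc and Runx1 as arcs between the middles of their anchor bins, by distance in kb from the outermost start of the gene model (black bar) in the direction of transcription, coloured by the mid-G1 log2 change. The height of an arc follows its span. The dashed arc is the structural loop across both Gata1 loops, which changed by -1.68 where these changed by 1.61 and 0.61.

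Gata2 (chr6:88143885-88157024, plus strand) had 5 dual-function loops, 3 CRE loops and 1 uncategorised loop. Of the 9, 5 were called in both treatments, 3 only in +auxin cells and 1 only in -auxin cells. The strongest in mid-G1 without auxin joined the start of Gata2 to that of Mcm2, a subunit of the replicative helicase (chr6:88840001-88850000). Its strength was 1.34, 2.71, 2.57 and 2.74 without auxin and 1.79, 2.39, 2.04 and 1.94 with auxin (-0.50). The loop from Gata2 exon sequence to chr6:88380001-88390000 was close to unchanged in mid-G1, at 1.28, 1.98, 2.24 and 2.40 without auxin and 1.12, 1.42, 2.34 and 2.29 with auxin (-0.07). These had the highest mid-G1 strengths at Gata2 without auxin, and neither passed 1.5-fold in mid-G1.

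The loop from chr6:88130001-88140000 to chr6:88420001-88430000, in an exon of Ruvbl1, was the weaker one at Gata2. It had 1.44, 2.15, 2.13 and 2.34 without auxin and 1.09, 1.79, 1.79 and 1.33 with auxin (-0.82). The opposite course was seen 110 kb upstream, at the start of Rpn1 (chr6:88030001-88040000), which encodes a subunit of the oligosaccharyltransferase. That loop had 1.14, 0.862, 0.837 and 0.777 without auxin and 1.39, 1.39, 1.55 and 1.36 with auxin (0.80). A loop of 1670 kb to the start of Pcbp1 (chr6:86470001-86480000) varied widely between stages, with 1.88, 2.78, 0.850 and 1.77 without auxin and 1.52, 3.61, 1.87 and 1.36 with auxin (-0.38). It was called only in +auxin cells although its mid-G1 value was lower there. The last of the loops called only with auxin ran between the starts of Dnajb8 and Ruvbl1 (chr6:88170001-88180000 and chr6:88410001-88420000), with 1.38, 1.14, 1.63 and 1.70 without auxin and 1.16, 1.64, 2.15 and 1.91 with auxin (0.17). The other 3 loops changed by -0.42 to 0.42.

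Tal1 (chr4:114729031-114744360, plus strand) had 7 loops, 5 CRE and 2 dual-function, and no boundary within 20 kb. In mid-G1 none of the 7 passed 1.5-fold in either direction, and 4 were lower and 3 higher with auxin. Its bins at chr4:114740001-114750000, which holds Tal1 exons, and chr4:114760001-114770000, which holds the start of the neighbour Pdzk1ip1, both looped to chr4:115520001-115530000 in Mknk1, a kinase gene. From the Tal1 exons the strength was 2.16, 1.72, 2.46 and 2.45 without auxin and 1.32, 2.46, 2.42 and 2.16 with auxin (-0.18). From the start of Pdzk1ip1 it was 1.61, 1.75, 3.38 and 2.49 without auxin and 1.52, 2.38, 2.44 and 3.10 with auxin (0.31). The first of them, at 2.16, was among the strongest in prometaphase, above 98.6% of all loops.

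The Tal1 start was joined to chr4:114330001-114340000, a bin with no protein-coding start, by a loop of 400 kb that was called only without auxin. Its strength was 0.960, 2.60, 2.06 and 2.11 without auxin and 1.16, 1.94, 2.14 and 2.51 with auxin (0.25), so its mid-G1 value was higher in the treatment in which it was not called. The shortest loop, 90 kb between the starts of Pdzk1ip1 and Stil, a centriole gene (chr4:114670001-114680000), had 0.996, 1.49, 1.57 and 1.57 without auxin and 1.18, 1.26, 1.07 and 1.11 with auxin (-0.50). The other 3 lay between -0.25 and 0.21.

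Zfpm1 (chr8:124806039-124861146, plus strand) had 9 CRE loops, 9 dual-function loops, 1 structural loop and 1 uncategorised loop. They were called only in -auxin cells in 8 cases, in both treatments in 5 and only in +auxin cells in 7. In mid-G1 12 were higher and 8 lower with auxin. A group of 5 led downstream to chr8:125200001-125240000, that is to the start of Cbfa2t3 and its flanks. Cbfa2t3 encodes ETO2, a corepressor in TAL1 complexes.

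The loop between both starts (chr8:124800001-124810000 and chr8:125200001-125210000) had 1.85, 1.92, 1.37 and 1.03 without auxin and 1.4, 2.3, 1.83 and 1.1 with auxin (0.10). The CRE loop from chr8:124810001-124820000 to chr8:125230001-125240000 had 2.12, 2.83, 2.21 and 1.15 without auxin and 1.69, 3.20, 2.53 and 1.84 with auxin (0.68). The dual-function loop from Zfpm1 exons at chr8:124840001-124850000 to chr8:125210001-125220000, which holds an intron of Cbfa2t3, had 2.52, 2.55, 1.52 and 0.883 without auxin and 2.34, 2.82, 1.99 and 1.42 with auxin (0.69). All 5 were strongest in ana/telophase in both treatments. In prometaphase without auxin they exceeded 97.2% to 99.0% of all loops, while in mid-G1 they exceeded 2.52% to 15.7%. The mid-G1 value was 0.347 to 0.536 times that in ana/telophase without auxin and 0.480 to 0.605 times with auxin. The other 2 changed by 0.32 and 0.55, so each of the 5 was higher with auxin in mid-G1. Several of these loops share pixels, so they are not separate measurements.

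Structural loops cross this group as well. The pair from chr8:125140001-125150000 to chr8:125330001-125340000 and to chr8:125350001-125360000 had 1 anchor inside and 1 outside all 5. Both were called only in -auxin cells. The first had 1.1, 2.20, 2.58 and 2.76 without auxin and 0.992, 1.19, 1.08 and 1.06 with auxin (-1.38). The second had 1.08, 2.78, 3.72 and 3.65 without auxin and 0.906, 1.72, 1.26 and 1.61 with auxin (-1.18). Without auxin both were stronger in mid-G1 than in ana/telophase, while the 5 Zfpm1 loops were weaker, and this was not tested.

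Elsewhere at Zfpm1 the change was of either sign. The lowest change was that of a dual-function loop of 70 kb from chr8:124790001-124800000, upstream of the gene, to an exon in chr8:124860001-124870000. It had 0.804, 0.945, 1.07 and 1.43 without auxin and 0.550, 0.626, 0.455 and 0.583 with auxin (-1.3). The highest change was that of a CRE loop from the Zfpm1 start to chr8:124580001-124590000, which had 1.02, 1.07, 1.1 and 0.940 without auxin and 1.28, 1.78, 1.80 and 1.81 with auxin (0.94). That change exceeded 99.6% of all loops, and this loop was likewise called only in +auxin cells. The loop with the highest mid-G1 strength at Zfpm1 without auxin joined the Zfpm1 start to that of Abcb10, a mitochondrial transporter gene with a role in haem synthesis, 1700 kb away (chr8:126500001-126510000). It had 1.3, 2.62, 2.36 and 3.80 without auxin and 1.37, 1.83, 2.47 and 3.39 with auxin (-0.17).

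The second strongest by that measure, from Zfpm1 exons to the start of Map1lc3b, an autophagy gene (chr8:124110001-124120000), had 1.44, 1.87, 2.84 and 2.62 without auxin and 2.04, 2.59, 3.01 and 3.48 with auxin (0.41). The loop from chr8:124790001-124800000 to a start of Banp (chr8:124490001-124500000) had 1.56, 2.37, 2.33 and 2.23 without auxin and 1.22, 1.53, 1.65 and 1.92 with auxin (-0.22). Neither passed 1.5-fold in mid-G1. Of the 3 remaining loops called only with auxin, the loop to the start of Cdt1, a replication licensing factor (chr8:125090001-125100000) had 1.62, 1.41, 1.13 and 0.855 without auxin and 1.76, 1.94, 1.61 and 1.05 with auxin (0.30). The loop to the starts of Cpne7 and Rpl13 (chr8:125625001-125650000) had 1.41, 1.15, 1.16 and 1.06 without auxin and 1.36, 1.38, 1.15 and 1.06 with auxin (-0.01). The single structural loop, from chr8:124780001-124790000 to chr8:124670001-124680000, had 1.18, 1.49, 1.62 and 1.63 without auxin and 1.18, 1.69, 1.69 and 1.71 with auxin (0.07). All 3 were called in 1 treatment only, and none differed by 1.5-fold in mid-G1.

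Klf1 (chr8:87425827-87429194, plus strand) had 3 dual-function loops of 70 to 80 kb in a gene-dense stretch, no boundary, and no strength above 1.46 in any map. The loop from the Klf1 start to chr8:87490001-87500000, at the starts of Prdx2, a peroxidase abundant in red cells, and Rnaseh2a, was called only in +auxin cells. It had 0.822, 0.855, 0.793 and 0.627 without auxin and 0.872, 1.16, 1.01 and 0.761 with auxin (0.28). From chr8:87430001-87440000, which holds the start of Dnase2a, a lysosomal nuclease gene, a loop to the start of Hook2 (chr8:87510001-87520000) had 0.910, 1.27, 1.20 and 1.01 without auxin and 0.975, 1.46, 1.24 and 1.1 with auxin (0.13). Both were higher with auxin at all 4 stages, by less than 1.5-fold in mid-G1. In mid-G1 without auxin they exceeded 0.312% and 5.16% of all loops. The last loop of Klf1 was called in both treatments and went the other way in mid-G1, at 1.22 without and 0.878 with auxin (-0.47), the largest change of the 3. Its partner is not described here.

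Runx1 (chr16:92601712-92826311, minus strand) had 9 CRE, 5 structural, 3 dual-function loops and 1 uncategorised loop. They were called in both treatments in 8 cases, only in -auxin cells in 6 and only in +auxin cells in 4. Only 1 was weaker and 2 were stronger in mid-G1. The gene has a distal and a proximal promoter, and a loop of 130 kb joined the bins that hold them (chr16:92820001-92830000 and chr16:92690001-92700000). Its strength was 1.19, 2.03, 2.17 and 2.25 without auxin and 1.19, 1.93, 2.31 and 2.37 with auxin (0.07). From each of these bins and from introns, loops ran 300 to 500 kb upstream to chr16:93120001-93220000, a stretch with no protein-coding start.

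The loop from the proximal start to chr16:93140001-93150000 was the strongest at Runx1 in mid-G1 without auxin, at 1.5, 2.71, 2.78 and 2.37 without auxin and 0.914, 2.39, 2.96 and 2.39 with auxin (0.01). That from chr16:92790001-92800000 to the same partner had 1.03, 2.19, 2.53 and 2.15 without auxin and 1.43, 1.94, 2.08 and 2.14 with auxin (-0.01). Both strengths in mid-G1 were nearly equal between treatments. A structural loop from the distal start to chr16:93120001-93130000, called only in +auxin cells, had 1.11, 1.51, 2.16 and 1.71 without auxin and 1.04, 1.62, 2.28 and 1.96 with auxin (0.20).

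From the proximal start a pair of structural loops went opposite ways. The loop to chr16:93290001-93300000 had 0.820, 1.22, 1.88 and 2.00 without auxin and 0.486, 0.779, 0.825 and 0.916 with auxin (-1.12). The loop to chr16:93450001-93460000 had 0.928, 1.46, 2.61 and 1.49 without auxin and 1.35, 1.11, 1.88 and 2.44 with auxin (0.71). The latter was lower with auxin in ana/telophase and early-G1 and higher in prometaphase and mid-G1, so its direction changed with the stage. The partner bin at 93450001 holds the motif match shown above.

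Of the remaining loops called only with auxin, the longest that reached upstream ran 1260 kb to an intron of Cldn14, a claudin gene (chr16:93970001-93980000). It had 0.566, 1.97, 0.964 and 1.21 without auxin and 1.53, 2.63, 1.75 and 1.89 with auxin (0.65), higher at all 4 stages. The loop to the start of Morc3 (chr16:93825001-93850000) had 1.39, 1.3, 1.75 and 1.00 without auxin and 1.55, 1.3, 2.13 and 1.29 with auxin (0.36). The loop in the other direction, to the start of Ifngr2, which encodes a chain of the interferon gamma receptor (chr16:91525001-91550000), had 1.04, 1.42, 1.62 and 1.26 without auxin and 1.08, 1.35, 1.34 and 1.14 with auxin (-0.14). The other 9 loops of Runx1 changed by -0.20 to 0.21.

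Myc (chr15:61816946-61821929, plus strand) had 6 CRE, 4 dual-function and 2 structural loops, all downstream, and none called only with auxin. They fell into 3 ranges. Close to the gene, 5 CRE loops of 100 to 230 kb ran from Myc exons to bins between 61920001 and 62060000, and their mid-G1 change was -0.42 to 0.03. At 810 and 830 kb stood the 2 structural loops. Another 5 loops of 1610 to 1780 kb ended between 63430001 and 63590000. A blood enhancer cluster of Myc is known in a far downstream stretch, and no mark of enhancers was read here.

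The 3 strongest in mid-G1 without auxin were among the far ones. The loop from the Myc start to chr15:63560001-63570000 had 1.31, 3.81, 5.46 and 4.38 without auxin and 1.91, 2.75, 2.42 and 2.76 with auxin (-0.66). The loop to chr15:63480001-63490000 had 1.45, 5.23, 5.12 and 4.21 without auxin and 0.950, 2.67, 3.63 and 2.65 with auxin (-0.67). From chr15:61800001-61810000, upstream of the gene, the loop to chr15:63580001-63590000 had 0.780, 2.27, 5.03 and 4.16 without auxin and 1.54, 2.58, 1.85 and 2.52 with auxin (-0.73). All 3 were weaker with auxin in mid-G1, and their values there, 2.52 to 2.76, were still above the median of all loops, 1.42. The far CRE loop whose partner holds the motif match printed above (chr15:63500001-63510000) changed least of the 5, at 1.23, 2.67, 3.21 and 3.14 without auxin and 1.1, 2.27, 2.28 and 2.47 with auxin (-0.34).

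The structural loop to chr15:62620001-62630000 had 1.07, 2.14, 2.22 and 3.06 without auxin and 0.931, 1.65, 1.23 and 1.19 with auxin (-1.36). That to chr15:62640001-62650000 had 0.535, 2.64, 2.79 and 3.96 without auxin and 0.929, 1.96, 1.34 and 2.06 with auxin (-0.95). These had the 2 lowest changes at Myc. Over the 12 loops the median mid-G1 strength was 2.97 without auxin and 2.23 with auxin. All 7 loops of 810 kb or more were called only in -auxin cells, as were 2 of the 5 near ones.

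Kit (chr5:75970941-76052747, plus strand) had 6 CRE loops, 1 dual-function loop and 1 uncategorised loop, of which 4 were called only in -auxin cells and 4 in both treatments. The 4 upstream CRE loops, to bins between 75675001 and 75860000, changed by 0.00 to 0.18. All 3 loops to downstream bins were lower with auxin in each of the 4 maps. The strongest, from an intron of Kit (chr5:76020001-76030000) to chr5:76230001-76240000, had 0.972, 2.60, 3.28 and 2.73 without auxin and 0.583, 1.87, 2.12 and 2.04 with auxin (-0.42).

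From the Kit start, the dual-function loop to chr5:76240001-76250000 had 1.52, 2.31, 2.42 and 2.22 without auxin and 1.34, 1.37, 1.29 and 1.23 with auxin (-0.86). The CRE loop to chr5:76220001-76230000 had 1.36, 2.07, 2.02 and 1.64 without auxin and 1.14, 1.74, 1.62 and 1.16 with auxin (-0.50). On the other side, the uncategorised loop from chr5:75975001-76000000 to chr5:75600001-75625000 had 0.987, 1.37, 1.55 and 1.83 without auxin and 1.04, 0.948, 1.07 and 1.24 with auxin (-0.56). It is the longest loop of Kit, at 375 kb. In mid-G1 only the dual-function loop of Kit passed 1.5-fold.

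**Figure D4:**
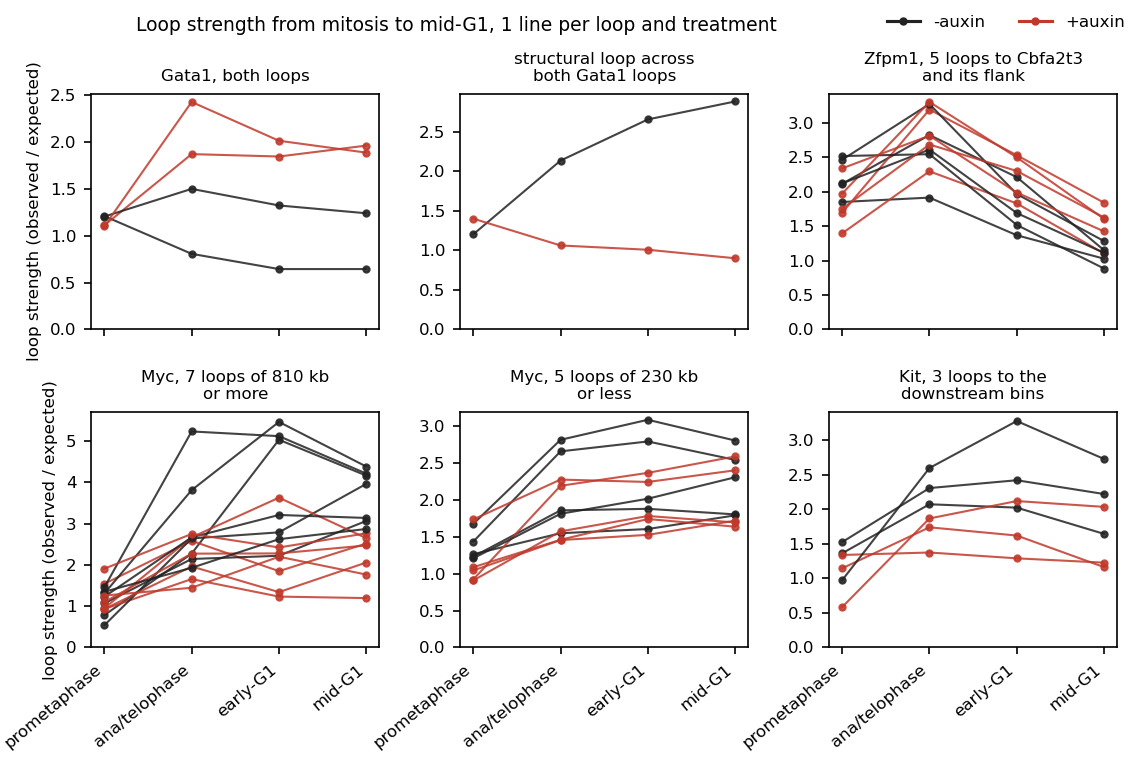
Loop strength (observed over expected contacts, from 0) at 4 stages for both Gata1 loops, the structural loop across them, the 5 Zfpm1 loops to Cbfa2t3 and its flank, the Myc loops of 810 kb or more and of 230 kb or less, and the 3 downstream Kit loops, with 1 line per loop in -auxin (black) and +auxin (red). The Zfpm1 loops fall from ana/telophase on in both treatments, while the structural loop across the Gata1 loops climbs to 2.89 without auxin and ends at 0.900 with it.

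Hba-a1 (chr11:32183511-32184465, plus strand), an adult alpha-globin gene, had 4 loops, 2 CRE and 2 dual-function, and no boundary. None of the 4 had an anchor in the bin of Hba-a1 itself. Hba-a1 and its neighbour Hba-a2 are near-identical copies, so contacts of either may be undercounted or split where reads have no unique place. The loop from the Hba-a2 start (chr11:32190001-32200000) to the start of Rhbdf1, an inactive rhomboid protease gene (chr11:32110001-32120000), had 0.746, 1.72, 1.88 and 1.97 without auxin and 0.896, 1.27, 1.18 and 1.29 with auxin (-0.61). It is the weaker one at this gene. The bin of Nprl3, whose introns hold the main alpha-globin enhancers, looped from chr11:32160001-32170000 to chr11:31730001-31740000 with 1.17, 2.67, 1.86 and 2.24 without auxin and 1.13, 2.42, 2.57 and 2.31 with auxin (0.04).

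From the wider Nprl3 bin, a loop of 900 kb to the start of Npm1, the nucleophosmin gene (chr11:33050001-33075000), had 1.07, 1.05, 0.932 and 0.819 without auxin and 1.20, 1.24, 1.21 and 0.948 with auxin (0.21). The last ran from the start of Hba-x, the embryonic zeta-globin gene (chr11:32170001-32180000), to the starts of Stk10 and Efcab9 (chr11:32430001-32440000) and was called only with auxin. It had 1.03, 1.66, 1.57 and 1.39 without auxin and 1.48, 1.43, 2.92 and 1.69 with auxin (0.29). Of the 4, only the loop to Rhbdf1 was lower with auxin in mid-G1.

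Hbb-b1 (chr7:110975048-110976610, minus strand), an adult beta-globin gene, had a single loop and no boundary. It was dual-function, spanned 70 kb from chr7:110950001-110960000 to chr7:111020001-111030000, which holds an exon of the olfactory receptor gene Olfr66, and was called only without auxin. Its strength was 0.922, 1.33, 1.77 and 1.95 without auxin and 0.400, 1.16, 1.22 and 1.33 with auxin (-0.55), lower at all 4 stages. Neither anchor covers Hbb-b1, so the loop encloses the gene. Hbb-b1 and Hbb-b2 are near-identical copies, with the same limit as at the alpha-globin genes.

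Across the set, 31 of the 84 loops were crossed by a structural loop (36.9%, against 44.7% of all loops), that is 1 of its anchors lay inside and the other outside. A total of 36 structural loops crossed a member loop, of which 33 were called only in -auxin cells and 25 were weaker with auxin in mid-G1, shares near the 94.6% and 71.3% of all structural loops. Their median strength there was 2.73 without auxin and 1.4 with auxin. Of the 16 crossed CRE loops 12 were higher with auxin in mid-G1 (75%, against 59.1% of all crossed CRE loops), with a median change of 0.21 (against 0.09), and 6 were called only in +auxin cells (37.5%, against 41.4%). Of the 26 CRE loops that were not crossed 12 were higher (46.2%, against 36.8%), with a median change of -0.07 (against -0.10), and 3 were called only in +auxin cells (11.5%, against 20.2%). The crossed loops come from a few loci and share anchors, so this is a description and was not tested.

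The 5 boundaries lay at Gata2 (chr6:88150001-88160000), Zfpm1 (chr8:124780001-124790000), Runx1 (chr16:92680001-92690000), Myc (chr15:61800001-61810000) and Kit (chr5:76020001-76030000). Boundary strength (ΔIS) is the difference between the highest insulation score near a boundary and that at the boundary, larger where fewer contacts cross. All 5 carry the deposited label cluster3, against 27.1% of all boundaries, and so 0 carry cluster1 (20.4% of all), cluster2 (31.9%), cluster4 (9.25%) or cluster5 (11.3%). That label was drawn from the same maps, and the median ΔIS of all cluster3 boundaries in mid-G1 was 0.561 without auxin and 0.560 with auxin. The boundary bins at Runx1 and Kit lie inside the gene bodies, and that at Gata2 overlaps the downstream end of its gene body. Those at Zfpm1 and Myc lie upstream of the gene.

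The Myc boundary was the strongest of the 5 from ana/telophase on, with and without auxin, with ΔIS of 0.336, 1.15, 1.74 and 1.60 without auxin and 0.232, 0.946, 1.44 and 1.37 with auxin (-0.23), lower at each stage. The Zfpm1 boundary had 0.369, 0.798, 1.09 and 1.12 without auxin and 0.292, 0.866, 1.38 and 1.34 with auxin (0.25), higher after prometaphase. These are the boundaries with the largest mid-G1 changes of the 5, in opposite directions. The Gata2 boundary had 0.176, 0.515, 1.05 and 0.990 without auxin and 0.153, 0.430, 1.09 and 1.01 with auxin (0.03).

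At Runx1 the ΔIS was 0.159, 0.866, 1.24 and 1.07 without auxin and 0.0633, 0.783, 1.33 and 1.03 with auxin (-0.06). At Kit it was 0.147, 0.647, 1.04 and 1.07 without auxin and 0.144, 0.514, 0.861 and 1.06 with auxin (-0.01). In mid-G1 0 of the 5 were weaker by 1.5-fold (against 44.5% of all boundaries) and 0 were stronger (against 8.64%). In prometaphase the Runx1 boundary was weaker by that measure (20%, against 29.3%), at values close to 0, and 0 were stronger (against 22.4%). In ana/telophase 0 were weaker (against 35.9%) or stronger (against 11%), and in early-G1 0 were weaker (against 37%) or stronger (against 11.1%). The median mid-G1 change was -0.01 over the 5, -0.04 over all cluster3 boundaries and -0.48 over all boundaries. Cluster3 was drawn from these same strengths, so the small change of the 5 follows in part from that label. Without auxin each of the 5 exceeded at least 79.9% of all boundaries in mid-G1.

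**Figure D5:**
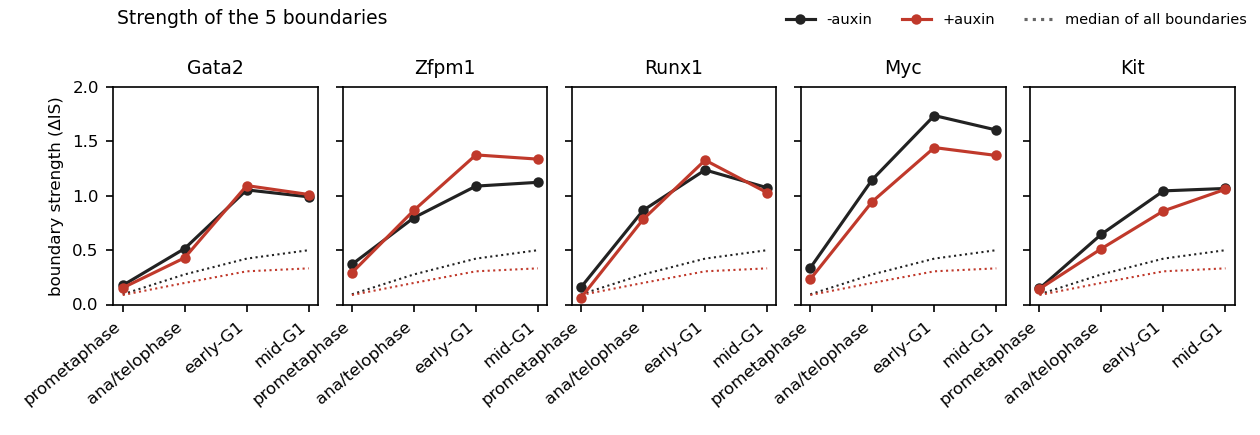
Boundary strength (ΔIS, from 0) at 4 stages for the boundaries at Gata2, Zfpm1, Runx1, Myc and Kit in -auxin (black) and +auxin (red) maps, with the medians of all boundaries dotted in the same colours. From ana/telophase on all 5 lie above both medians. In mid-G1 the treatments differ most at Zfpm1 (1.12 and 1.34) and Myc (1.60 and 1.37).

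At the other 5 genes the nearest boundary lay 45.5 to 66.4 kb from the gene body and carried the label cluster2, against 31.9% of all boundaries. Its mid-G1 ΔIS was lower with auxin at each of them. The value was 1.53 without and 0.514 with auxin near Hba-a1 (-1.57), 1.36 and 0.900 near Gata1 (-0.59), 1.4 and 1.02 near Klf1 (-0.45), 1.31 and 0.979 near Hbb-b1 (-0.42) and 0.620 and 0.468 near Tal1 (-0.41). Those near Hba-a1 and Gata1 passed 1.5-fold, 2 of 5 where 44.5% of all boundaries did so. The difference between these 5 boundaries and the 5 at the genes was not tested.

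Further erythroid genes in 3 lists were counted by the same rule, and each of them had a loop. The cofactors and partners Ldb1, Lmo2, Tcf3, Cbfa2t3, Gfi1b and Lyl1 had 52 loops, of which 19 were weaker and 6 stronger with auxin in mid-G1. Of these 52, 5 are the Zfpm1 loops to Cbfa2t3 already counted among the 84, none of them weaker and 2 stronger. The other factors Nfe2, Bcl11a, Myb, Spi1, Klf3 and Fli1 had 29, with 14 weaker and 1 stronger. The genes of erythropoietin signalling (Epor, Jak2, Stat5a and Stat5b) had 16 distinct loops, with 6 weaker and 0 stronger, since Stat5a and Stat5b share loops. Over all loops 36.7% were weaker and 2.83% stronger. These lists were chosen with earlier results of these data known.

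For each of 9 members the protein-coding gene with the most similar course was sought among those that share no loop with it, by the Euclidean distance between median log2 strengths over the 8 maps. The gene nearest to Kit was Stk4 (distance 0.126), that nearest to Tal1 was Nab1 (0.149), and that nearest to Myc was AA386476 (0.157). For Hba-a1 it was Bnip1 (0.164), for Gata2 Ddx39 (0.188), for Runx1 Tnfaip6 (0.214), for Klf1 Dcaf10 (0.241) and for Zfpm1 Nacc1 (0.248). For Hbb-b1, which rests on 1 loop of its own, it was Fam49b (0.519). The search covered 14462 genes, and these distances have no test.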

How the data were processed

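Hi-C libraries of 8 conditions, 18 in all, stand behind the values. Per the labels reads were aligned with Bowtie2 to mm9, and the study's methods name HiC-Pro for valid pairs, juicer_tools for balanced matrices, rGMAP for domains and a modified HICCUPS for loops. Loop strength was deposited as a ratio, observed over donut-expected contacts averaged over 9 pixels in replicate-merged maps. Boundary strength (ΔIS) was deposited as a signal, the unlogged insulation score difference of the same merged maps. Categories, stages of first detection and clusters were taken over as the authors' labels. The number of contacts behind a value is not given in the sources used here, so no interval could be set.

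Members were found with Python 3.11.15, numpy 2.4.6 and pandas 2.3.3 and plotted with matplotlib 3.10.9, using gene models of GENCODE vM1 on mm9. All deposited coordinates lay within the mm9 chromosome lengths. Changes are log2(+auxin / -auxin) with no pseudocount, so a ratio is lacking for 3 loops and 1 boundary whose value was 0 in a map. A change of 1.5-fold was called weaker or stronger, as a description of merged maps and not a test. The search for members was checked against a pair by pair search at 200 random stretches, and all were equal. The 1.5-fold call was run on 2-fold changes planted without noise, which it could not miss. Loops given in full were all of a gene with up to 6, apart from 1 of Klf1 given by its mid-G1 values. Otherwise they were the 3 strongest in mid-G1 without auxin, the 3 with the largest mid-G1 change and any called only with auxin. Others given in full were picked after their values were seen. The members and gene lists were chosen with earlier results of these data known. A list of genes, the partner of a loop of Klf1 and the nearest course to Gata1 are not reported here. Alternatives changed the stretch around a gene, the fold, the centring and the pseudocount, and leaving out the loops of 1 gene at a time was added after seeing the data.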

Additional observations from a re-analysis of the deposited data

Results flagged for a closer look

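At 2 loops of Myc the difference between treatments changed direction with the stage, by at least 1.5-fold both ways. The dual-function loop from chr15:61800001-61810000 to chr15:63580001-63590000 was higher with auxin in prometaphase (0.780 against 1.54, a log2 change of 0.98) and lower in early-G1 (5.03 against 1.85, -1.45). The structural loop from the Myc start at chr15:61810001-61820000 to chr15:62640001-62650000 did likewise, at 0.535 against 0.929 in prometaphase (0.79) and 2.79 against 1.34 in early-G1 (-1.06), each with the -auxin value first. The difference between stages was not tested, since each value is of 1 merged map.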

How the results depend on the processing

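No paired analysis was possible because the columns used are of merged replicates and carry no replicate number. No replicate was left out, since maps of single replicates were not analysed here. Of 82 values recomputed under other settings, 68 stayed within the spread over genes or boundaries or within 1.5 times the count, and 14 did not. For loop medians that spread was 0.47, wider than the shift of 0.38 from subtracting the median of all loops. For those medians the measure could thus hardly register a move. The 11 loops weaker with auxin in mid-G1 became 22 at a ratio of 5 to 4, 3 at 2-fold, 3 after the median change of all loops was subtracted, 7 with a pseudocount of 0.5 and 5 without the loops of Myc. The 8 stronger loops became 14 at a ratio of 5 to 4, 1 at 2-fold, 21 after that subtraction, 2 with a pseudocount of 0.5 and 5 without the loops of Zfpm1. The 5 boundaries became 3 with the gene body alone, 8 with 50 kb on each side and 3 within 20 kb of the transcription start. The median boundary change of -0.01 became 0.47 after the median of all boundaries, -0.48, was subtracted. The median loop change of 0.01 became 0.38 after the median of all loops, -0.38, was subtracted, and lay between -0.08 and 0.06 with any 1 gene left out. The depth behind single values is unknown, so small differences between maps cannot be told from noise.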

Other observations

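Among the further erythroid genes, the following were picked after their values were seen. Lmo2, a bridging member of the TAL1 complex, had 9 loops, 7 weaker and 1 stronger with auxin in mid-G1, with a median strength of 2.97 without and 1.65 with auxin. Gfi1b, a repressor needed for red cell and platelet formation, had 6 loops and none weaker, with a median log2 change of 0.17. Cbfa2t3 had 22 loops, 8 weaker and 3 stronger, and 5 of them, 2 of the stronger ones included, are its loops with Zfpm1. Of the 6 boundaries at these genes 2 were of cluster3, against 27.1% of all boundaries. The mid-G1 log2 change of the boundary was -0.10 at Bcl11a and -0.32 at Myb, both of cluster3, and -0.57 at Fli1, -1.08 at Epor, -1.25 at Ldb1 and -1.39 at Cbfa2t3.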
